A study of Mus musculus with 3 samples.

Results

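Splicing factor genes were taken by symbol from a mouse melanoma time course with doxorubicin. They comprised 98 genes of the 18193 genes that had a probe set with a single symbol, and they were read by 269 probe sets. The families were the SR proteins (Srsf, 10 genes), the heterogeneous nuclear ribonucleoproteins (Hnrnp, 19), the proteins of the small nuclear ribonucleoproteins or snRNPs (Snrp, 9), the SF3a and SF3b subunits (9), the U2AF genes (3), the pre-mRNA processing factors (Prpf, 12) and the RNA-binding motif genes (Rbm, 36). The Rbm pattern is a naming pattern and also takes in genes of other RNA roles, such as Rbm19 and Rbm28 of ribosome biogenesis and the non-coding transcripts Rbm3os and Rbm46os.

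The cells were B16, an established mouse melanoma line, grown with serum and antibiotics and given 1 µg/ml doxorubicin, a chemotherapy drug that inserts between DNA bases and traps topoisomerase II on DNA. RNA was taken at 0 h, 2 h and 4 h, and 1 Affymetrix Mouse430_2 array was hybridised per time, so there were no replicates and no test between times was possible. No untreated culture at 2 h or 4 h was analysed here, so drug and time in culture cannot be told apart. In the labels, titles and protocols give B16 and doxorubicin, while the free descriptions speak of murine BMDM and, with the source names at 2 h and 4 h, of an unexplained "ET" treatment. Of 10 pigment cell markers, 10, 9 and 9 had a signal of at least 200 at 0, 2 and 4 h with a summed signal of 207093, 226269 and 227656. The sum was carried by bright pigment genes such as Tyrp1 and Dct, and the lineage regulators Sox10 (11710, 2640 and 892) and Mitf (6576, 2031 and 739) were lower at 2 and 4 h. Of 10 macrophage markers 5, 4 and 4 were at that level, and they summed to 3868, 4856 and 5326. Cd68 was the largest part of that sum (1884, 3044 and 3699), Csf1r had 522, 424 and 376, Lyz2 had 372, 414 and 398, and Itgam and C1qa were under 100 on each array. The part of other cells in the ratios below was not tested, and fewer cells of a type and less RNA per cell cannot be told apart in such bulk RNA. Each array was run in a fluidics module of its own, and the 4 h array was hybridised 94 min after the 0 h array, so for both 2 h and 4 h the array run cannot be separated from the time point.

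Splicing removes introns from pre-mRNA on the spliceosome. The U1 snRNP recognises the 5′ splice site, U2AF binds the 3′ splice site, the U2 snRNP with SF3a and SF3b binds the branch point, and the U4/U6.U5 tri-snRNP with its PRPF proteins completes the catalytic particle. SR proteins and hnRNPs bind the transcript and favour or repress the use of splice sites. All families are expressed in proliferating cells.

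Signals are array intensities scaled to a trimmed mean of 500, and ratios are given as log2 of 2 h or 4 h over 0 h. A gene was represented by its brightest probe set, and genes with a mean signal of at least 200 (9723 genes, 83 of the 98 splicing factor genes) were compared. The 15 genes under this level were Hnrnph3, Prpf39, Srsf12, Snrpn, Rbm3os, Rbm46os and 9 further Rbm genes, with signals between 4.85 and 356. Rbm11, Rbm12b1, Rbm46, Snrpn and Srsf12 were under the signal floor of 100 on all 3 arrays. The spread between probe sets of one gene had an SD of 0.43 at 2 h and 0.52 at 4 h over the splicing factor genes, close to 0.40 and 0.48 over all genes. This spread may include real differences between transcripts, and no measure of the spread between cultures or arrays was available from single arrays.

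As a whole the splicing factor genes sat near the centre of all genes in the main scaling, but below genes of like signal at 4 h. Family medians differed, untested, while the ranges of most families overlapped. Genes at least 2-fold lower numbered 3 of the 83 at 2 h, where 5.69% of all genes were, and 10 at 4 h, where 14.4% of all genes were. None was 2-fold higher at either time, against 1.41% and 2.32% of all genes. Both times are set against the same 0 h array. The median log2 ratio was 0.00 at 2 h and 0.05 at 4 h, against -0.01 and -0.07 over all 9723 genes. In 4 equal classes of genes by signal, from dimmest to brightest, the 4 h medians of members were -0.59, -0.73, -0.50 and 0.18. Those of all genes were -0.29, -0.29, -0.08 and 0.28. The dimmest class held 3 members and the brightest 52. With quantile normalization the members' 4 h median less that of all genes was -0.19. At 4 h the family medians ran from 0.59 for the snRNP proteins, 0.33 for U2AF and 0.25 for the hnRNPs, through 0.08 for SF3 and -0.09 for the SR proteins, to -0.30 for the PRPF and -0.59 for the RBM genes. In scaling to hybridization spike-ins all family medians except those of the snRNP and U2AF genes were below 0, and with equal medians all except that of the RBM genes were above 0.

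**Figure D1:**
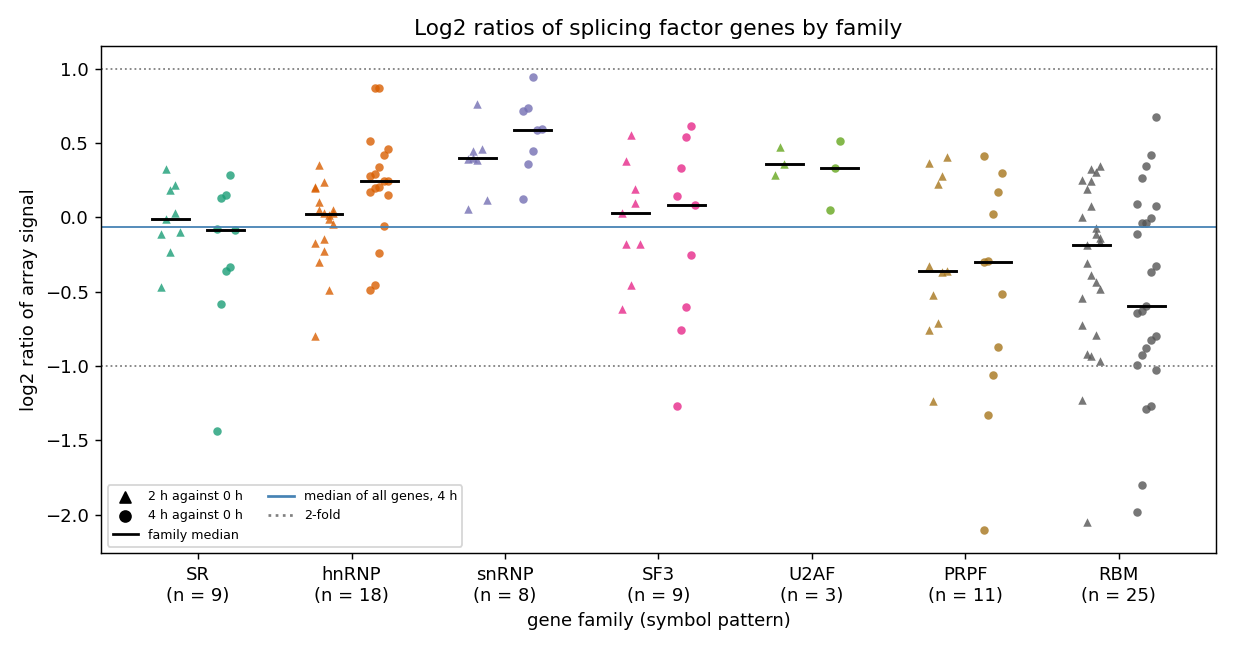
Log2 ratios (y axis) of the 83 splicing factor genes past the expression filter, by family (x axis); triangles are 2 h and circles 4 h against 0 h, 1 array each, and black bars are family medians. All 8 snRNP genes lie above 0 at both times, and the genes beyond the lower 2-fold line at 4 h are 5 RBM, 3 PRPF, 1 SR and 1 SF3 gene.

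The lowest ratio at 4 h was that of Prpf4b, which encodes a nuclear kinase of the tri-snRNP. Its signals at 0, 2 and 4 h were 1007, 595 and 234, which is 4.3-fold lower at 4 h (log2 ratio -2.11 ± 1.08, SD over 3 probe sets). Most of this difference lay after 2 h, and Prpf4b was the 1 member at least 2-fold lower at 4 h against 2 h (log2 ratio -1.35), where 5.41% of all genes were. None was 2-fold higher in that comparison, against 0.843% of all genes. Rbm5, a regulator of alternative splicing of apoptosis genes, had signals of 1924, 822 and 486 at 0, 2 and 4 h and was 3.96-fold lower at 4 h (-1.99 ± 0.54, SD over 3 probe sets). All of its probe sets were at least 2-fold lower, with ratios between -2.27 and -1.23. Its neighbour and relative Rbm6 had signals of 775, 593 and 421 (-0.88 ± 0.24 at 4 h, SD over 2 probe sets).

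Rbm27, whose product acts with the nuclear exosome on polyadenylated RNA in human cells, had signals of 584, 141 and 167, and was already 4.14-fold lower at 2 h (-2.05 ± 1.31, SD over 2 probe sets). Its other probe set differed little, at -0.19 and -0.17 at 2 and 4 h, and the mean over both was -0.99 at 4 h, under 2-fold. The related Rbm26 had signals of 482, 446 and 480 on one probe set and of 469, 254 and 219 on another (-0.01 and -1.10 at 4 h). Prpf38b, a protein of the activating spliceosome, had signals of 1030, 436 and 410 (-1.24 ± 0.13 at 2 h and -1.33 ± 0.21 at 4 h, SD over 2 probe sets). On this probe set nearly all of the difference was present at 2 h. The other one had signals of 462, 222 and 150 (-1.06 and -1.62 at 2 and 4 h), with a further decrease after 2 h. The paralogue Prpf38a had signals of 1188, 1388 and 1206.

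The promoters of the 2 lowest members at 4 h, Prpf4b and Rbm5, and of the 2 highest, Snrpf and Hnrnph2, are shown because these genes mark the ends of the range of ratios. They are RefSeq windows of GRCm38.p6, from 250 bases before to 50 after an annotated start, written 5′ to 3′ on the gene's strand. This start need not be that of the gene span used below. The span of Prpf4b begins at 34874820, so its window lies inside the gene. Capitals mark matches, on either strand, of 6 short motifs: GGGCGG (the GC box of Sp1), CCAAT (bound by NF-Y), CCGGAAG (ETS factors), TATAAA (the TATA box), CACGTG (an E-box bound by Myc) and TGACG (part of the cAMP response element). None of these contains another. Prpf4b lies at chr13:34875279-34875578 on the plus strand, Rbm5 at chr9:107770953-107771252 on the minus strand, Snrpf at chr10:93589609-93589908 on the minus strand and Hnrnph2 at chrX:134600929-134601228 on the plus strand.
Prpf4b: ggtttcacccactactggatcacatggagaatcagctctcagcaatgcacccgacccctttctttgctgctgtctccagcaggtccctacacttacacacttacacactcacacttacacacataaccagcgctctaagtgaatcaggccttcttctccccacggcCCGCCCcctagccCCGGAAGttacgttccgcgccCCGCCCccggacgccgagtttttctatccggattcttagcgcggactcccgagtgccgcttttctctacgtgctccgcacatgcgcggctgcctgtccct
Rbm5: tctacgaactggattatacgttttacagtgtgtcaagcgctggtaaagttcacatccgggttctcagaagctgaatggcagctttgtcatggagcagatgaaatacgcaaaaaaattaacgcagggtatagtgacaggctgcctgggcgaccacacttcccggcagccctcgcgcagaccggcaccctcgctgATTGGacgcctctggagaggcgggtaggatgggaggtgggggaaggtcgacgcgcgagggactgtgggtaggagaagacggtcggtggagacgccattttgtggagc
Snrpf: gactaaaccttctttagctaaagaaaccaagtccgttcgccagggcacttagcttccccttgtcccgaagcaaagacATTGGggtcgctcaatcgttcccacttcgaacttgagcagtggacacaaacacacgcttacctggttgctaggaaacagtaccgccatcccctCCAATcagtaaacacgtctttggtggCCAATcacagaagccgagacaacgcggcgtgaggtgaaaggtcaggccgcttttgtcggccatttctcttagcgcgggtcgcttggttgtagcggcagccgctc
Hnrnph2: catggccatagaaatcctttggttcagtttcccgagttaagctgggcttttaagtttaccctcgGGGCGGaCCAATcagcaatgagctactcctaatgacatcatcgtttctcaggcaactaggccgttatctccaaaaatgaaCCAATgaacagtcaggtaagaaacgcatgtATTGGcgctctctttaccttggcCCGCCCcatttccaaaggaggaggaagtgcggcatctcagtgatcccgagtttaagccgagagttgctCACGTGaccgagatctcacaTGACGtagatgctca
Prpf4b held 2 GC boxes and 1 ETS motif, Rbm5 held 1 CCAAT, Snrpf held 3 CCAAT motifs, and Hnrnph2 held 3 CCAAT motifs, 2 GC boxes, 1 E-box and 1 TGACG. Windows were found for 72 of the 83 members. TGACG was present in 48.6% of them, against 33.1% of 7921 promoters of genes past the filter and 21.0% of all 27025 promoters. CCAAT was in 36 of the 72, against 38.4% and 37.9%, CCGGAAG in 30.6%, against 19.7% and 9.12%, and GGGCGG in 55.6%, against 65.7% and 35.9%. CACGTG was in 9.72%, against 10.7% and 7.24%, and TATAAA in 11.1%, against 7.03% and 14.2%. Among 9 windows of members at least 2-fold lower at 4 h, 1 held TGACG and 3 held CCAAT. Among 7 windows of snRNP genes, 4 held CCGGAAG and 3 held CCAAT. These matches describe letters only.

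The other members 2-fold lower at 4 h were Srsf4, Rbm39, Sf3a1, Rbm38, Prpf3 and Rbm33. Srsf4, an SR protein, had signals of 1904, 1379 and 703 at 0, 2 and 4 h (log2 ratio -1.44 at 4 h, 1 probe set) and was the 1 SR gene past 2-fold. Rbm39, which resembles the large U2AF subunit, had signals of 1240, 650 and 508 (-1.29 ± 1.28, SD over 2 probe sets). The 2 probe sets of Rbm39 had opposite signs at 4 h, and the dimmer one had signals of 188, 172 and 270 (0.52). Without the probe sets that carry an _x_at, _s_at or _a_at suffix, this one represented Rbm39, at 0.52, and the mean over both was -0.38.

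Sf3a1, the largest SF3a subunit, had signals of 2942, 1918 and 1218 (-1.27 ± 0.49, SD over 3 probe sets) and was the 1 lower member among the brightest of 4 equal classes of genes by signal. Its mean over probe sets was -0.77. Rbm38, an RNA-binding protein known as a p53 target, had signals of 2299, 1702 and 953 (-1.27, 1 probe set). Prpf3, a U4/U6 protein of the tri-snRNP, had signals of 666, 408 and 319 (-1.06), and Rbm33 of 878, 449 and 430 (-1.03). Prpf3 and Rbm33 were under 2-fold with equal medians (-0.76 and -0.73) and with quantile normalization (-0.73 and -0.75). With equal medians Rbm39, Rbm38 and Sf3a1 were just under 2-fold as well (-0.98, -0.97 and -0.97). All 10 lower members were already below their 0 h signal at 2 h, and 3 of them, Rbm27, Prpf38b and Rbm5, were 2-fold lower there. Of the 10, 6 had several probe sets. Every probe set was below 0 h at 4 h in 4 of these, and every one was 2-fold lower in 2, Rbm5 and Prpf38b.

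**Figure D2:**
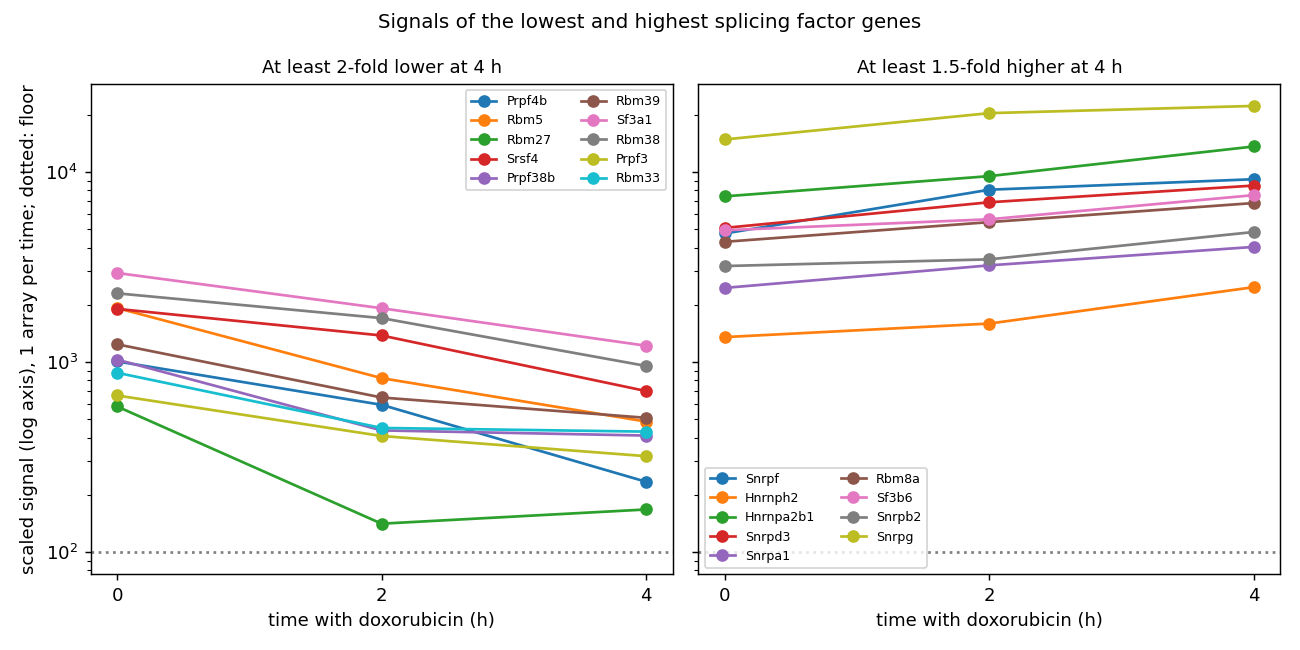
Scaled signal (y axis, log scale) against time with doxorubicin in h (x axis), 1 array per time, for the 10 members at least 2-fold lower at 4 h (left) and the 9 members at least 1.5-fold higher (right); the dotted line is the signal floor of 100. Rbm27 is lowest at 2 h (141), most of the difference in Prpf4b lies between 2 h (595) and 4 h (234), and the higher genes, apart from Hnrnph2, start above 2000.

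The snRNP proteins were higher than at 0 h in all 8 genes at both times, by 1.09-fold to 1.93-fold at 4 h. At 2 h this held for 6 of 8 with spike-in scaling and for 7 of 8 with quantile normalization and with the mean over probe sets. Of the 5 snRNP genes with several probe sets, 3 had every one above 0 at 4 h. A median ratio of 0.40 was obtained at 2 h and 0.59 at 4 h. The Sm proteins form the ring that all major snRNPs other than U6 share. Of 7 such proteins 5 had a value here, and Snrpd1 and Snrpd2 had none. Snrpf, the Sm protein F, stood highest of all members, with signals of 4748, 8071 and 9165 at 0, 2 and 4 h (log2 ratio 0.77 and 0.95, 1 probe set). Snrpg had signals of 14840, 20419 and 22281 (0.59 ± 0.03 at 4 h, SD over 2 probe sets), and Snrpe 16441, 21551 and 22414 (0.45, 1 probe set). In both, most of the difference was present at 2 h.

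Snrpd3 had signals of 5080, 6932 and 8487 (0.74 ± 1.31, SD over 3 probe sets), and its dimmer probe sets lay at -0.80 and 1.81, the second of these with a 0 h signal of 78.1 under the floor. Snrpb, which encodes the B and B′ proteins, was nearly level at 10179, 10603 and 11117 (0.13). Its other probe set had signals of 10586, 10171 and 10244 (-0.05). Snrpa1 and Snrpb2, the A′ and B″ proteins of the U2 snRNP, had signals of 2455, 3226 and 4036 (0.72 ± 0.06, SD over 3 probe sets) and of 3200, 3470 and 4835 (0.60 ± 0.33, SD over 2 probe sets). The difference in Snrpb2 lay mainly after 2 h. Snrpc, the U1 snRNP protein C, had signals of 7558, 9979 and 9705 (0.36). The direction held at 4 h for all 8 genes in the main scaling and with equal medians, and for 7 of 8 with quantile normalization and with spike-in scaling, where Snrpb was at -0.29 and -0.19. All 8 genes were in the brightest class, whose 2431 genes had a median of 0.28 at 4 h, lower than the snRNP median of 0.59.

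The hnRNPs were close to the 0 h signal at 2 h and somewhat above it at 4 h, with medians of 0.02 and 0.25, and 14 of the 18 genes past the filter were above 0 at 4 h. This median was near the 0.28 of the brightest class, in which 17 of the 18 lay, and 5 genes with quantile normalization and 6 with spike-in scaling were above 0. Hnrnpa2b1, a nuclear RNA-binding protein of splicing and RNA transport, had signals of 7446, 9516 and 13635 (0.87 ± 0.65 at 4 h, SD over 4 probe sets). Its 3 bright probe sets lay between 0.87 and 0.93 and its dim one at -0.40. Hnrnph2, which binds runs of G in RNA, had signals of 1352, 1593 and 2478 (0.87, 1 probe set). Its relative Hnrnph1 had signals of 5444, 3888 and 6455 on one probe set and of 492, 535 and 696 on the other, so the low value at 2 h was on the first of these. Hnrnpa2b1 and Hnrnph2 were above 0 at 4 h under all 4 scalings, as were Hnrnpu and Hnrnpm.

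Hnrnpa1, which antagonises SR proteins in splice site choice, had the lowest hnRNP ratio, with signals of 4874, 2799 and 3478 (-0.49 at 4 h) on a probe set with an _x_at suffix that can cross-hybridise. Its other probe set had signals of 1339, 846 and 133 (-3.33). Hnrnpdl had signals of 6865, 5568 and 5021 (-0.45 ± 0.57, SD over 7 probe sets). Hnrnpab had signals of 27122, 31068 and 32973 (0.28 ± 0.36, SD over 7 probe sets), and Hnrnpf had 16203, 16528 and 20536 (0.34 ± 0.03, SD over 4 probe sets).

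Apart from Srsf4, ratios of the 8 other SR genes at 4 h lay between -0.58 and 0.28. The median of all 9 was -0.01 at 2 h and -0.09 at 4 h. Of these 9, 7 were in the brightest class, whose median at 4 h was higher, at 0.28. With the suffixed probe sets left out, the median of the 8 SR genes that remained was -0.47 at 4 h. Srsf6 had signals of 7628, 7577 and 5092 (-0.58 ± 0.31 at 4 h, SD over 4 probe sets), although 2 of its other probe sets were already lower at 2 h (-0.40 and -0.38). Srsf2 had 11347, 11588 and 9005 (-0.33 ± 0.24, SD over 4 probe sets). Srsf9 was highest, with 5639, 6554 and 6862 (0.28). Srsf1 had 8783, 11027 and 9616 (0.13 ± 0.25, SD over 6 probe sets that lay between -0.42 and 0.14). Srsf3 had 7266, 8276 and 8058 (0.15 ± 0.59, SD over 6 probe sets). With quantile normalization 1 of 9 SR genes was above 0 at 4 h, and with spike-in scaling none was.

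**Figure D3:**
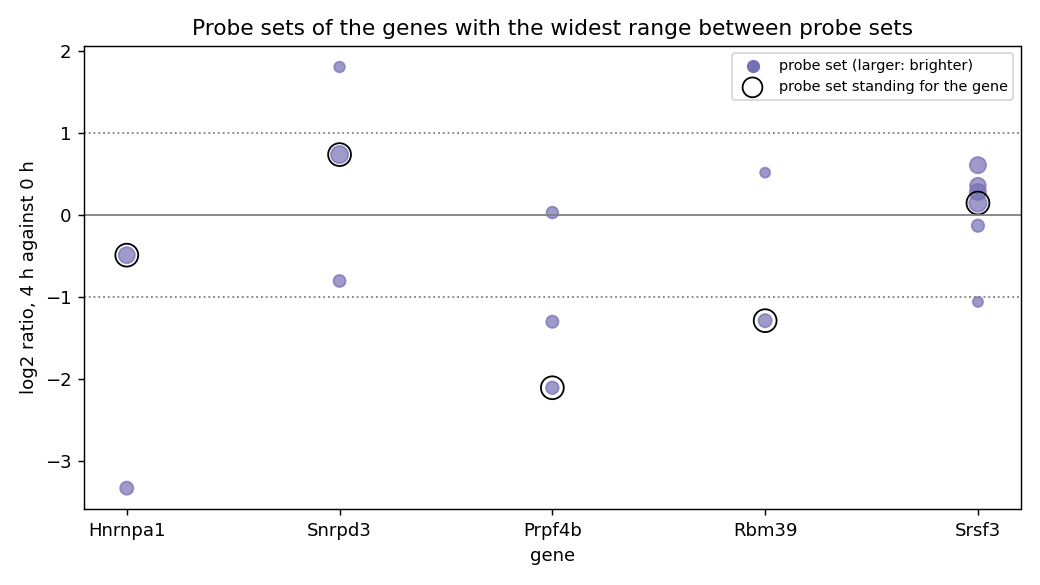
Log2 ratio at 4 h against 0 h (y axis) of each probe set past the filter for the 5 members with the widest range between probe sets (x axis); larger points are brighter, and circles mark the one used for each gene. Hnrnpa1 runs from -3.33 to -0.49, Snrpd3 from -0.80 to 1.81, Prpf4b from -2.11 to 0.03, Rbm39 from -1.29 to 0.52 and Srsf3 from -1.06 to 0.61.

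Disagreement between probe sets was common. For 28 of the 51 members read by 2 or more passing probe sets, every probe set lay on the same side of 0 at 4 h. Prpf4b had 1 probe set with near-equal signals at 0 and 4 h (461, 300 and 472 at 0, 2 and 4 h). In Srsf3 the dimmest probe set had signals of 300, 214 and 144 (-1.06), whereas 4 brighter ones lay between 0.15 and 0.61. Which transcripts these probe sets read was not analysed here.

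The subunits that bind the branch point and the 3′ splice site differed among themselves. All 9 SF3 genes were in the brightest class, with a median of 0.08 at 4 h against 0.28 for that class. In SF3, the small subunits Sf3b6, which touches the branch point, and Sf3b5 had signals of 4937, 5639 and 7557 (0.61 ± 0.13 at 4 h, SD over 3 probe sets) and of 7831, 11493 and 11423 (0.54 ± 0.08, SD over 2 probe sets). Sf3b4 had signals of 7161, 6339 and 4227 (-0.76 ± 0.20, SD over 2 probe sets), on the side of Sf3a1, and Sf3b3 had 3421, 2502 and 2254 (-0.60). Sf3b1, the large subunit that is mutated in human uveal melanoma, had signals of 5637, 4978 and 5962 (0.08 ± 0.44, SD over 4 probe sets that lay between -0.45 and 0.59). Among the U2AF genes, the small subunit U2af1 had signals of 5404, 6597 and 5605 (0.05), the large subunit U2af2 had 3551, 4929 and 4473 (0.33), and U2af1l4 had 750, 963 and 1070 (0.51). U2af1 was below 0 with quantile normalization (-0.23) and spike-in scaling (-0.27).

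Among the PRPF genes, lower ratios were found for the U4/U6 protein Prpf4 (1045, 810 and 570, -0.87 at 4 h) and the tri-snRNP bridge Prpf6 (3161, 2468 and 2211, -0.52), beside the 3 genes past 2-fold. Prpf19, a ubiquitin ligase of the activated spliceosome, had signals of 9567, 12310 and 12761 (0.42 ± 0.14, SD over 4 probe sets). Prpf31, which holds the U4/U6 and U5 particles together, had 1367, 1814 and 1683 (0.30 ± 0.03, SD over 2 probe sets), and the scaffold of the catalytic core, Prpf8, had 7429, 9025 and 8360 (0.17).

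Among the RBM genes 5 of 25 (20.0%) were at least 2-fold lower at 4 h, against 14.4% of all genes, and 6 of 25 were above 0, against 4483 of 9723. The share among PRPF genes was 3 of 11 (27.3%). Of the brightest class, however, only 6 RBM and 3 PRPF genes were members. Outside that class 18.1% of all 7292 genes were 2-fold lower and 2690 were above 0, so the RBM share was near that of dimmer genes. Rbm8a, the Y14 subunit of the exon junction complex, was highest, with signals of 4293, 5449 and 6869 (0.68, 1 probe set), and Rbm45 had 364, 451 and 488 (0.42). Rbm7, a subunit of the nuclear exosome targeting complex, lay just inside 2-fold with 1998, 1374 and 1003 (-0.99), and Rbm15b, a partner of the m6A writer, had 1056, 558 and 556 (-0.93 ± 0.08, SD over 3 probe sets). Rbm17 and Rbm22, which are spliceosomal proteins, had signals of 2461, 2813 and 2394 and of 1356, 1192 and 876 (-0.04 and -0.63). With the suffixed probe sets left out, the RBM median less that of all genes was -0.08 over 20 genes, against -0.53 over 25.

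Signal went with the ratio, in these genes and in all genes. Of the 83 members 52 were in the brightest of the 4 signal classes, where the median ratio at 4 h was 0.18 for members and 0.28 for all 2431 genes. There, 1 of the 52 was at least 2-fold lower, against 3.0% of all, and 9 were at least 1.5-fold higher, against 18.3% of all. In the other classes 9 of 31 members were 2-fold lower, against 18.1% of 7292 genes, with a median of -0.63 against -0.22. Spearman's rank correlation between mean signal and the 4 h ratio was 0.53 over 83 members and 0.32 over 9723 genes. These points share the same 3 arrays, and the mean signal includes the 4 h array.

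**Figure D4:**
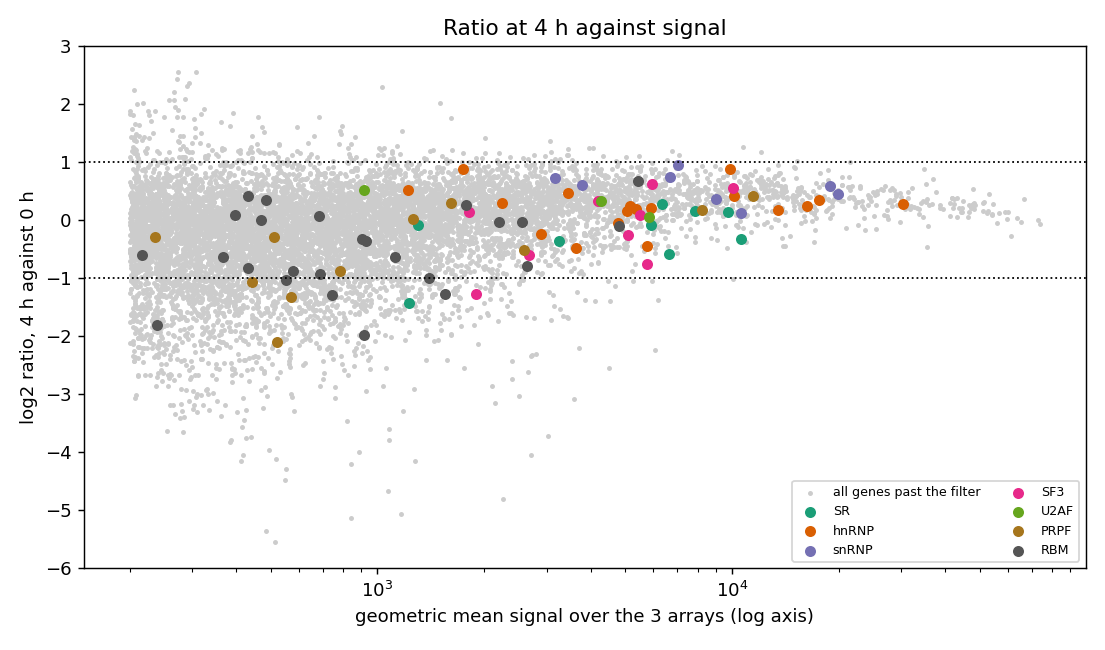
Log2 ratio at 4 h against 0 h (y axis) against the geometric mean signal over the 3 arrays (x axis, log scale) for all 9723 genes (grey) and the 83 splicing factor genes (coloured by family); dotted lines mark 2-fold. The snRNP genes and most hnRNPs lie among the bright genes, whose median was 0.28, and most lower members lie among the dimmer ones.

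Gene length, taken as the genomic span in GRCm38.p6, was 14.3 kb in the median over the members and 23.3 kb over all genes. Family medians were 7.26 kb for the SR, 8.37 kb for the snRNP, 14.2 kb for the hnRNP, 20.6 kb for the RBM and 21.9 kb for the PRPF genes. All genes were put into 3 equal classes by span. In the shortest (up to 13.8 kb), 2 of 38 members were 2-fold lower at 4 h, against 13.6% of all such genes. In the middle class 6 of 33 were (13.7% of all), and in the longest (over 39.1 kb) 2 of 12 were (15.9% of all).

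A 1.5-fold threshold, chosen after the data were seen, gave 12 lower members and 1 higher at 2 h, against 14.9% and 6.62% of all genes. At 4 h it gave 21 lower and 9 higher, against 25.5% and 11.5%. The 9 higher were Snrpf, Snrpd3, Snrpa1, Snrpb2, Snrpg, Hnrnph2, Hnrnpa2b1, Rbm8a and Sf3b6, so that 5 of the 9 were snRNP genes. Of the 6 with several probe sets, 4 were above 0 in all of them.

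The medians depended on the scale of the arrays. The median of all genes at 4 h shifted by 0.30 with equal medians, 0.12 with quantile normalization and -0.31 with spike-in scaling. Relative to all genes, the snRNP median was 0.66 in the main scaling, and 0.66, 0.24 and 0.65 in these. The RBM median was -0.53, and -0.54, -0.36 and -0.44, and the PRPF median -0.23, and -0.23, -0.25 and -0.24. With the values as deposited, where 6 PRPF genes passed the filter, their relative median came to -0.02 at 4 h, and at 2 h to 0.17. The hnRNP median was 0.31, and 0.32, -0.16 and 0.30, and the SR median -0.02, and -0.02, -0.45 and -0.03, so that both families lay lower with quantile normalization.

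**Figure D5:**
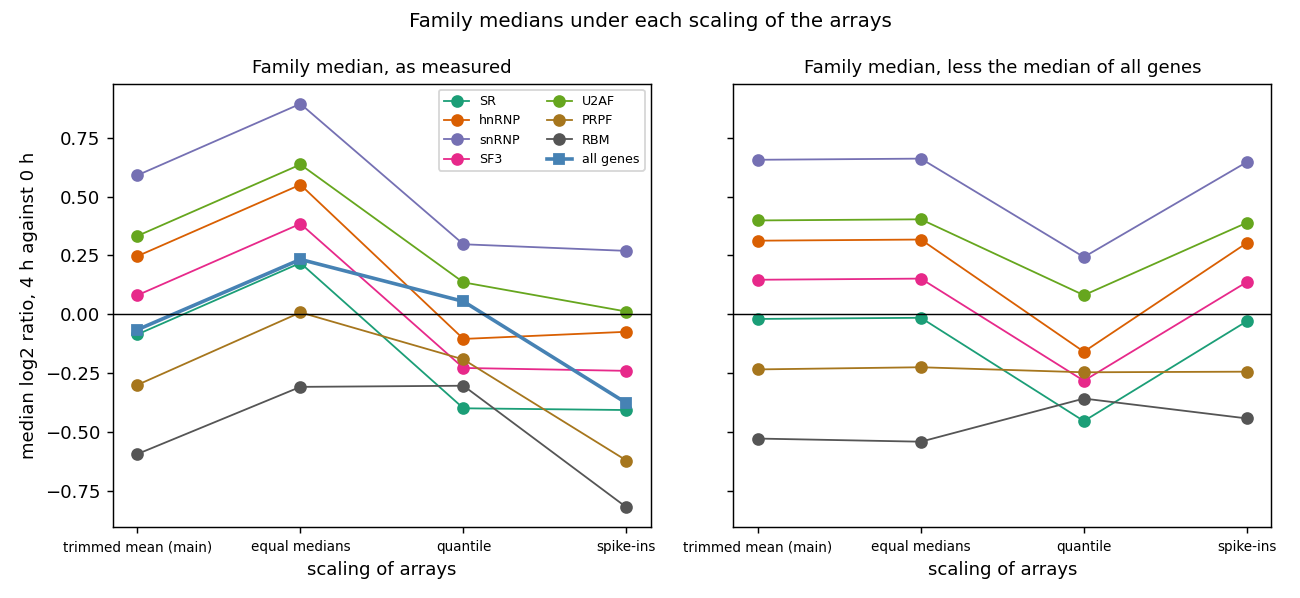
Family median log2 ratio at 4 h against 0 h (y axis) under 4 scalings of the arrays (x axis), as measured (left) and less the median of all genes (right). Relative to all genes, the snRNP median stays highest (0.24 to 0.66) and the PRPF and RBM medians stay below 0, while the hnRNP and SF3 medians change sign with quantile normalization.

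Other splicing genes outside these symbol patterns were read from a list of 100, of which 87 passed the filter. At 4 h 8 of them were lower by 2-fold or more, against 14.4% of all genes, and 1 was higher by as much, against 2.32%. The median was -0.06, the same as over all genes to within 0.01. Lsm8, of the ring that binds U6 snRNA, had signals of 5248, 3312 and 790 (-2.73, 1 probe set), although Lsm4 of the same ring had 5478, 8074 and 9209 (0.75). Smn1, which assembles Sm rings on snRNAs, had 1808, 1651 and 753 (-1.26), and its partner Gemin2 had 936, 849 and 441 (-1.09). The SR protein kinases Clk1, Clk4 and Clk2 had log2 ratios of -1.19, -1.12 and -1.08 at 4 h, and Clk3 had 0.28. The SR protein kinases Srpk1 and Srpk2 had -0.32 and -0.06. Luc7l (-1.13) and Tia1 (-1.11) were past 2-fold as well. Clk1 was lower already at 2 h (797, 256 and 350). Highest were Mbnl2, an alternative splicing regulator (2095, 2985 and 4749, 1.18 ± 0.64, SD over 5 probe sets), Raly (0.92) and Ptbp3 (0.90).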

How the data were processed

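Per the labels, total RNA of B16 cells at 0, 2 and 4 h was labelled in 1 sample per time. The authors deposited probe set intensities on a linear scale, made with GCOS 1.4 per the submitters' processing notes; how probe pairs were summarised is not stated in the sources used here. Per the file headers the arrays were Mouse430_2, and the deposited array settings gave the fluidics modules and hybridization times. The deposited values had a 2% trimmed mean of 150.0 on each array, and depth has no count here, so the number of arrays limits the precision.

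From these, signals were rescaled to a trimmed mean of 500, floored at 100 and taken to log2, and probe sets with a mean log2 signal of at least that of 200 passed. Of 45101 probe sets, 64 were controls, 34958 carried 1 symbol in the platform annotation and 932 several, 28 of which name a splicing factor gene and were not used. No p-value was computed with 1 array per time. Members, lists and alternatives were chosen with earlier results of these data known. Genes were named as follows: members past 2-fold, the 2 highest and 2 lowest of each family, the 5 widest in probe sets, and the 3 highest and lowest of the other list; paralogues, complex partners and other members beside them were chosen after their values were seen. The other settings were the deposited scale, equal medians, quantile normalization, 18 hybridization spike-in probe sets, other floors, an offset, other filters, the mean over probe sets, probe sets without suffixes and updated symbols; the 1.5-fold threshold was added after the data were seen. Counting was tested on simulated data. RefSeq of GRCm38.p6 gave names, spans and promoters; proteins were not used. Python 3.11.15, numpy 2.4.6, pandas 2.3.3 and matplotlib 3.10.9 were used.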

Additional observations from a re-analysis of the deposited data

How the results depend on the processing

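No paired analysis was possible because each time had 1 array, and for the same reason no array could be left out. For the splicing factor genes together, 12 other settings were run, and the number past the filter differed between some of them. Shares of all genes under the same setting are in brackets. Genes at least 2-fold lower at 2 h numbered 3 of 83 (5.69%), but 7 of 98 without the expression filter (5.6%). They numbered 8 of 82 with spike-in scaling (8.91%) and 1 of 68 with the values as deposited (2.08%). At 4 h they numbered 10 of 83 (14.4%), but 17 of 82 with spike-in scaling (22.3%) and 6 of 85 with equal medians (9.20%). With the values as deposited, where fewer genes passed the filter, they numbered 5 of 68 (8.34%). Genes at least 2-fold higher at 4 h numbered 0 (2.32%), but 5 of 85 with equal medians, against 783 of 10204 over all genes. The added 1.5-fold threshold gave 12 lower (14.9%) and 1 higher (6.62%) at 2 h and 21 lower (25.5%) and 9 higher (11.5%) at 4 h. The median less that of all genes, 0.02 and 0.12, was -0.17 and -0.19 with quantile normalization. Without the filter both medians were 0 at both times. There, genes under the floor on every array have a ratio of exactly 0, so this setting does not place the members. Over the 13 ratios past 2-fold, 132 of 146 values under the alternatives stayed past it, 13 were smaller, and 1 changed sign, that of Rbm39 at 4 h (0.52 without suffixed probe sets). A lower floor of 50, other filters, updated symbols and the deposited scale left these ratios exactly as they were wherever the gene passed. Such repeats do not bear on stability, and genes with no passing probe set under a setting were not counted in the 146. The values under 2-fold that the report does not give were Prpf3 and Rbm33 with an offset of 50 (-0.96 and -0.95) and Rbm5 at 2 h as a mean over probe sets (-0.93). Family medians less that of all genes depended more on the setting: for PRPF that at 2 h was -0.35, but 0.17 with the values as deposited and -0.19 with the mean over probe sets, and that at 4 h was -0.23, but -0.02 with the values as deposited and -0.43 with a filter at a higher signal. U2AF at 4 h was 0.40, but 0.08 with quantile normalization, SF3 at 4 h was 0.15, but -0.28 with quantile normalization and -0.04 with the mean over probe sets, and SR at 4 h was -0.02, but -0.37 without suffixed probe sets and -0.45 with quantile normalization. Across all settings the RBM median less that of all genes at 4 h ran between -0.54 and -0.08. The cause was not tested where none is named.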
